A study of Mus musculus with 24 samples.

Results

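The question here was which genes of the mouse striatum differed after a morphine injection when animals that had drunk morphine and animals that had drunk saccharin entered 1 comparison. All 24 arrays of the series entered. There were 12 arrays of mice injected with morphine at 20 mg/kg and 12 of mice injected with saline in a volume of 10 ml/kg, all killed 4 h later. In each set of 12, 6 arrays were of mice that had drunk morphine over a long period. The other 6 were of mice that had drunk saccharin, a sweetener that served as the control drink. All were C57BL/6J mice aged 6 to 10 weeks, and each array, labelled with 1 number, held striatal RNA on an Illumina mouse beadchip. Of 13742 genes tested, 95 differed between the injections, and 51 of these did not pass the threshold in the contrast within either kind of drinker. These 51 genes are the main subject.

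Morphine is an agonist of the mu opioid receptor, which couples to inhibitory G proteins on neurons. In rodents an acute dose also raises the circulating glucocorticoid hormone corticosterone, which binds the glucocorticoid receptor, a transcription factor present in neurons, glia and vessel cells. The striatum consists mostly of medium spiny neurons, with astrocytes, oligodendrocytes, microglia and blood vessels among them, and a sample of tissue holds RNA of all of these. In such a sample, fewer cells of a type and less RNA per cell cannot be told apart.

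Levels are quantile-normalised log2 intensities, given as the lowest, median and highest of 12 arrays. Differences are log2, morphine injection minus saline injection, with a standard error (SE) from a limma fit with drink and chip as terms. Each of 6 chips held 1 array of each of the 4 groups, so that 12 within-chip pairs of 1 morphine-injected and 1 saline-injected array of the same drink could be formed. Median raw intensity was 168 to 543 on morphine-injected arrays and 164 to 430 on saline-injected arrays. A call is a Benjamini-Hochberg adjusted p under 0.05 over all genes. The SE of a difference had a median of 0.101 with drinks pooled and 0.142 in either kind of drinker.

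On 2 arrays of morphine drinkers, both on chip 2, the striatal label and the levels went apart. Drd1, the D1 dopamine receptor gene of medium spiny neurons, stood at 9.88 on replicate 31 (morphine injection) and 10.12 on replicate 32 (saline injection), against 12.8 to 14.1 on the other 22 arrays. Neurod2 encodes a transcription factor of excitatory cortex cells. Its level was 13.12 and 12.53 on these arrays, in that order, and 8.02 to 11.5 on the others. The mean of 27 medium spiny neuron genes was 9.90 and 10.0 there, against 11.8 to 12.6 elsewhere. The mean of 24 cortical projection neuron markers was 11.26 and 11.17 there, against 9.99 to 11.21 elsewhere, so that Neurod2, chosen after its values were seen, stood further apart than its list. The comparison was repeated without both.

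With drinks pooled, 70 genes rose and 25 fell. The 95 called genes were 0.691% of those tested, the rises 0.509% and the falls 0.182%. An unadjusted p under 0.05 was found for 1144 genes, 8.32% of all. In morphine drinkers alone 9 genes passed, 0.0655% of those tested, and in saccharin drinkers alone 51 passed, 0.371%. No fall passed in morphine drinkers, and 10 did in saccharin drinkers. Which kind of drinker had more calls depended on the fit. With array weights, an alternative setting, 60 genes passed in morphine drinkers and 40 in saccharin drinkers. In every other setting more genes passed in saccharin drinkers. These counts alone thus do not show a weaker response in morphine drinkers. The genes called with drinks pooled but in neither kind of drinker numbered 51, 0.371% of the genes tested, of which 31 rose and 20 fell. Falls made up 39.2% of these 51 genes and 11.4% of the 44 that were also called in a kind of drinker. Only 5 of the 10 falls called in saccharin drinkers were among those 44. At an unadjusted p under 0.05 with drinks pooled, 605 genes were higher and 539 lower, so falls were not in excess among the 51. The thresholds chose the 51 genes, and no test of the set was made. Another 8 genes were called in a kind of drinker but not with drinks pooled, and the other falls of saccharin drinkers were among them.

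The 51 changes were small. Their size was 0.231 to 0.690 log2 units with a median of 0.398, whereas the 44 other called genes changed by 0.272 to 3.12 units with a median of 0.571. The pooled direction was seen in all 12 within-chip pairs for 22 of the 51 genes, in 11 pairs for 25 and in 10 pairs for 4. The pairs are made of the same arrays and chips as the fit that chose these genes. Counts of pairs, here and below, thus describe the genes and are no separate evidence. Sox12, which was not called, was also lower after morphine in 12 of 12 pairs. The ranges of the 12 morphine-injected and 12 saline-injected arrays overlapped for 49 of the 51 genes. They did not overlap for Fgfr2 and Itpk1, nor for 8 of the 44 others. Those 10 genes were the only ones among all tested whose ranges were apart, which is 0.0728%.

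Among the falls, the levels of fibroblast growth factor receptor 2, Fgfr2, were the most clearly separated. Fgfr2 stood at 11.93, 12.42 and 12.49 on morphine-injected arrays and at 12.50, 12.69 and 12.91 on saline-injected arrays. Every morphine-injected array was thus below every saline-injected array. The difference was -0.38 (SE 0.0562, adjusted p = 0.00146 by limma). It was -0.41 in morphine drinkers and -0.36 in saccharin drinkers, where the adjusted p was 0.102 and 0.0769 in that order. Gab1, an adaptor protein that links growth factor receptors to downstream kinases, stood at 10.91, 11.42 and 11.97 after morphine and at 11.38, 11.87 and 12.28 after saline. The ranges of Gab1 overlapped, but the morphine-injected array was lower in 12 of 12 pairs, with a difference of -0.39 (SE 0.0669, adjusted p = 0.00493). Rasgrp3, an exchange factor that activates Ras proteins, fell in 12 of 12 pairs as well, by 0.36 (SE 0.0669, adjusted p = 0.00934 by limma).

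A pair of secreted signals fell. Cxcl12, the chemokine ligand of Cxcr4, stood at 10.40, 10.84 and 11.48 on morphine-injected arrays and at 10.97, 11.35 and 12.10 on saline-injected arrays. The groups overlapped over the middle of this span, and the morphine-injected array was lower in 10 of 12 pairs. The difference was -0.58 (SE 0.112, adjusted p = 0.0135 by limma), or -0.74 in morphine drinkers and -0.42 in saccharin drinkers. The interaction of drink and injection had an adjusted p of 0.956 for Cxcl12, so no difference between the drinkers was shown. Further probes of Cxcl12 gave -0.23 and -0.19, neither with an unadjusted p under 0.05, and with the mean of its probes Cxcl12 was at -0.34 and not called (adjusted p = 0.0583 by limma). Wnt7a, a Wnt ligand with known roles in brain vessels and oligodendrocyte precursors, stood at 9.18, 9.69 and 10.04 after morphine and at 9.69, 9.98 and 10.33 after saline, a difference of -0.40 (SE 0.0795, adjusted p = 0.0166). Of 27 tested NF-kappa-B and inflammatory genes, Cxcl12 alone passed, as a fall, where 0.182% of all genes fell. The median of the list was -0.07, against 0.00 over all genes.

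**Figure D1:**
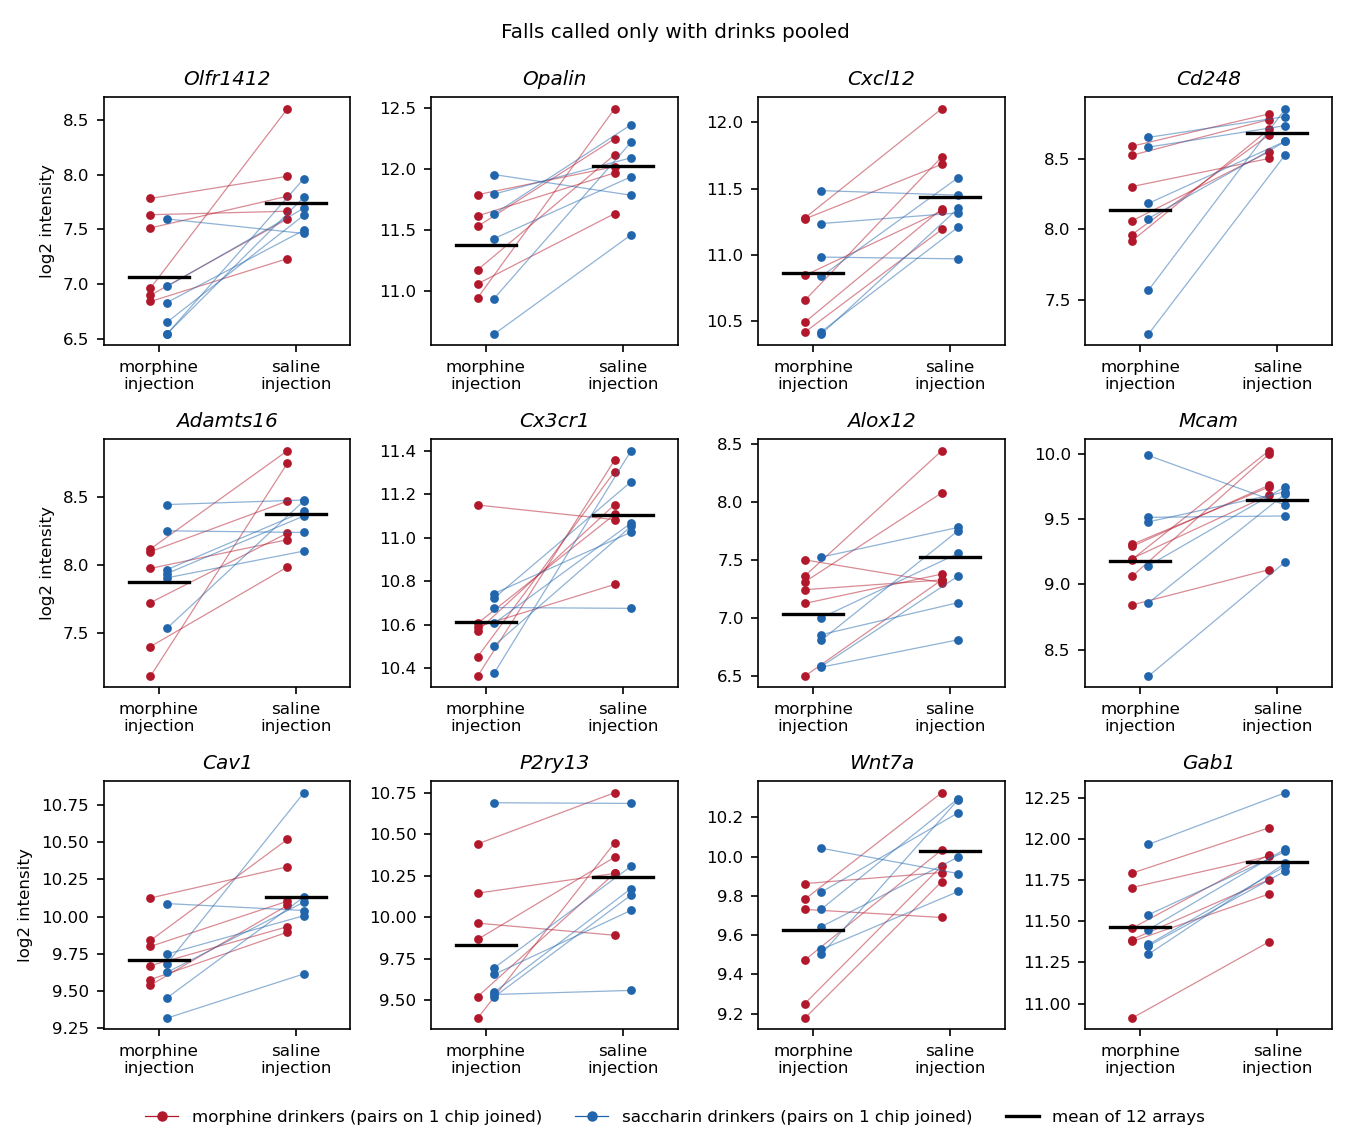
Log2 intensity of the 12 falls of largest size among genes called only with drinks pooled, for 12 morphine-injected arrays (left of each panel) and 12 saline-injected arrays (right). Points are arrays, coloured by drink, thin lines join arrays of the same chip and drink, and black bars are means. Most lines slope up to the saline side, while the spans of the points overlap in every panel.

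Opalin, which encodes a membrane protein of mature oligodendrocytes, fell the most among the brightly detected genes of the set. It stood at 10.65, 11.48 and 11.96 on morphine-injected arrays and at 11.46, 12.06 and 12.50 on saline-injected arrays. Opalin was lower after morphine in 11 of 12 pairs, and its level on morphine-injected arrays was 0.636 times that on saline-injected arrays (log2 difference -0.65, SE 0.114, adjusted p = 0.00601 by limma). No other gene of 23 tested myelin and mature oligodendrocyte markers passed, and the median of this list was 0.00. At an unadjusted p under 0.05, 5 of the list, with Opalin among them, were lower and 0 higher. Over all genes 3.92% were lower and 4.4% higher at that threshold. The mean of the list on 1 array was 11.6 to 12.2 after morphine and 11.7 to 12.2 after saline. Of 23 tested transcription factors of the lineage and progenitor markers, Sox10 and Nkx2-2 fell, by 0.38 and 0.53, where 0.182% of all genes fell. Their differences were -0.21 and -0.25 in morphine drinkers, against -0.54 and -0.81 in saccharin drinkers, where both were called. A second probe of Nkx2-2 had the opposite sign, 0.14, and Nkx2-2 was not called with the mean of its probes (-0.20, adjusted p = 0.734 by limma), with no chip term or with chip position as a term. Sox10 was not called under the last 2 of these. Their interaction p was 0.0117 for Sox10 and 0.00412 for Nkx2-2 without adjustment, and no gene's interaction passed after adjustment over all genes.

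A pair of genes of microglia, the resident immune cells of the brain, fell. Cx3cr1, the receptor for the neuronal chemokine fractalkine, stood at 10.36, 10.60 and 11.15 on morphine-injected arrays and at 10.67, 11.10 and 11.40 on saline-injected arrays. A single morphine-injected array, at 11.15, stood above the saline median. The difference was -0.49 (SE 0.0884, adjusted p = 0.00755 by limma), with -0.51 in morphine drinkers and -0.48 in saccharin drinkers. P2ry13, an ADP receptor of microglia, stood at 9.39, 9.67 and 10.69 after morphine and at 9.56, 10.26 and 10.75 after saline. Its ranges nearly coincided, and its difference of -0.41 (adjusted p = 0.0413) became -0.35 (adjusted p = 0.0674 by limma) without the 2 arrays that stood apart. Mertk, a receptor for the engulfment of dying cells that astrocytes carry too, rose by 0.50 and was called in both kinds of drinker. Of 26 tested microglia markers these 3 passed, against 0.691% of all genes, 17 had a negative difference, and the median was -0.05, or -0.02 without the 2 arrays. The list mean was 10.07 to 10.45 on morphine-injected arrays and 10.00 to 10.58 on saline-injected arrays, and the arrays at 10.07 and 10.58 were the 2 that stood apart. Its part in the falls of Cx3cr1 and P2ry13 was not tested.

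Genes of the vessel wall moved in both directions. Among the falls, Cd248, the pericyte and fibroblast surface protein endosialin, stood at 7.26, 8.13 and 8.65 on morphine-injected arrays and at 8.50, 8.69 and 8.85 on saline-injected arrays. The saline-injected arrays were tightly grouped, with an SD of 0.119, and the morphine-injected arrays were spread below them, with an SD of 0.43. Cd248 was lower after morphine in 12 of 12 pairs (difference -0.54, SE 0.112, adjusted p = 0.0226 by limma). Mcam, the adhesion molecule CD146 of endothelial and mural cells, stood at 8.30, 9.19 and 9.99 after morphine and at 9.11, 9.70 and 10.02 after saline, a difference of -0.47 (SE 0.101, adjusted p = 0.0302). Cav1, the coat protein of caveolae, stood at 9.32, 9.68 and 10.13 after morphine and at 9.61, 10.09 and 10.84 after saline, a difference of -0.43 (SE 0.084, adjusted p = 0.0152 by limma). For both, 11 of 12 pairs were lower after morphine while the ranges overlapped widely.

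Among the rises, Nostrin, which controls the traffic of endothelial nitric oxide synthase, stood at 9.48, 9.96 and 10.58 on morphine-injected arrays and at 8.56, 9.27 and 10.40 on saline-injected arrays. Its difference was 0.60 (SE 0.126, adjusted p = 0.0248 by limma), and it was higher in 11 of 12 pairs. Notch4, a Notch receptor of endothelial cells, stood at 9.64, 10.03 and 10.50 after morphine and at 9.22, 9.52 and 9.99 after saline. All 12 pairs were higher after morphine for Notch4 (0.48, SE 0.078, adjusted p = 0.003). Rhoj, a small GTPase of endothelial cells, rose by 0.46 (SE 0.0951, adjusted p = 0.0226 by limma). None of the 27 tested endothelial and mural cell markers, a list that holds none of these 6 genes, passed. At an unadjusted p under 0.05, 6 of the list were lower and 2 higher, against 3.92% lower and 4.4% higher over all genes. Of the list, 19 differences were negative, and the median was -0.10. The list mean was 8.83 to 9.39 on morphine-injected arrays and 9.08 to 9.41 on saline-injected arrays, and its part in these changes was not tested.

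The other falls among the 12 of largest size were of dim genes. Olfr1412, an olfactory receptor gene, had the largest fall of the set, with levels of 6.55, 6.93 and 7.78 on morphine-injected arrays and 7.23, 7.68 and 8.60 on saline-injected arrays (difference -0.68, SE 0.142, adjusted p = 0.0244 by limma). Adamts16, a secreted metalloprotease, fell by 0.50 (SE 0.108, adjusted p = 0.0329), and Alox12, an arachidonate lipoxygenase, by 0.49 (SE 0.111, adjusted p = 0.0458). The filter on dim probes lay at 7.09, so several morphine-injected arrays were below it for Olfr1412 and Alox12, whose levels there lie in the lowest part of the arrays' range. Alox12 was not called without the 2 arrays (adjusted p = 0.0828 by limma). Its difference was 0.03 after scaling to a common median and 0.02 after cyclic loess, with the brightest probe picked anew in each. Second probes above the filter gave -0.08 for Adamts16 and -0.02 for Alox12, neither with an unadjusted p under 0.05.

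The rises of largest size were led by Zbtb16, the zinc-finger repressor PLZF, a known glucocorticoid-induced gene. Zbtb16 stood at 7.80, 8.60 and 9.54 on morphine-injected arrays and at 7.32, 8.05 and 8.74 on saline-injected arrays. The groups shared a wide span, but 11 of 12 pairs were higher after morphine, and the difference was 0.69 (SE 0.12, adjusted p = 0.00569 by limma), with 0.66 in morphine drinkers and 0.72 in saccharin drinkers. Plekhf1, a phosphoinositide-binding protein of endosomes, stood at 8.48, 9.69 and 10.06 after morphine and at 8.25, 8.80 and 9.41 after saline. Its difference of 0.65 (adjusted p = 0.0313) was 0.63 without the 2 arrays that stood apart, where it did not pass (adjusted p = 0.067 by limma). Tlr7, an endosomal receptor for single-stranded RNA, stood at 8.44, 8.96 and 9.83 after morphine and at 7.71, 8.46 and 8.91 after saline. Its rise of 0.61 (SE 0.136, adjusted p = 0.0422) was 0.69 without the 2 arrays (adjusted p = 0.0119 by limma).

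**Figure D2:**
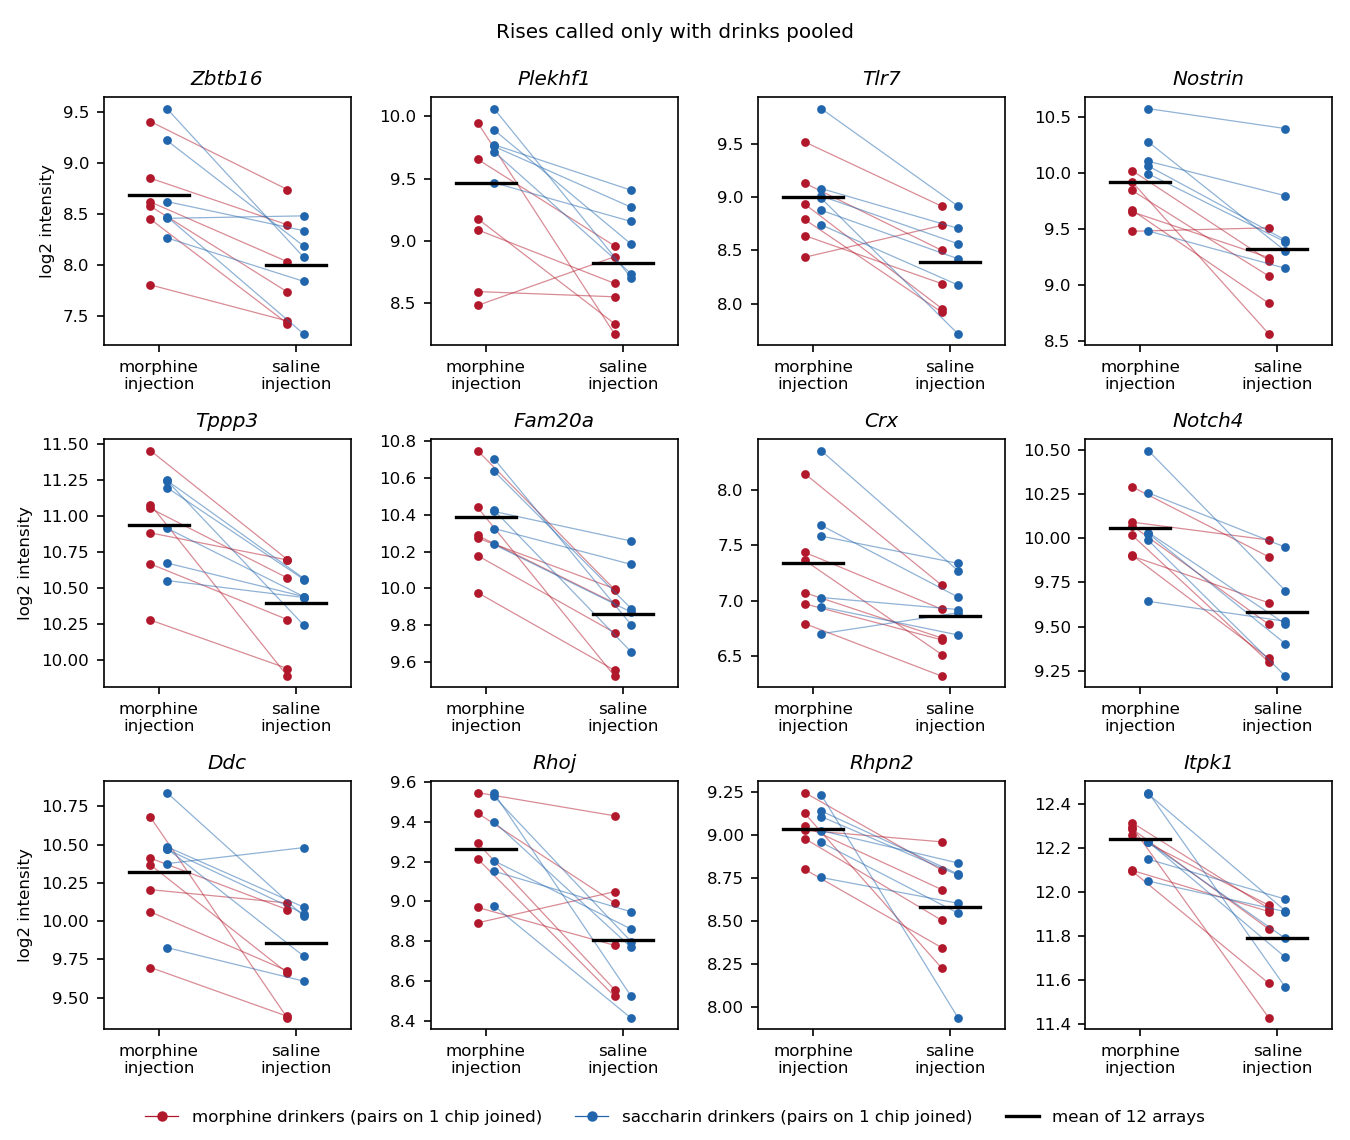
Log2 intensity of the 12 rises of largest size among genes called only with drinks pooled, for 12 morphine-injected arrays (left of each panel) and 12 saline-injected arrays (right). Points are arrays, coloured by drink, thin lines join arrays of the same chip and drink, and black bars are means. In the Itpk1 panel all 12 morphine-injected points, from 12.05, lie above all 12 saline-injected points, up to 11.97.

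Genes of inositol phosphate and amino acid metabolism were among the rises. Itpk1, a kinase that makes higher inositol phosphates, stood at 12.05, 12.24 and 12.45 on morphine-injected arrays and at 11.43, 11.87 and 11.97 on saline-injected arrays, with no overlap. Its difference was 0.45 (SE 0.0722, adjusted p = 0.00269 by limma), nearly the same in morphine drinkers (0.46) and saccharin drinkers (0.45). Ippk, the kinase that makes inositol hexakisphosphate, rose by 0.32 in 12 of 12 pairs. Ddc, the decarboxylase that makes dopamine and serotonin from their amino acid precursors, stood at 9.70, 10.39 and 10.84 after morphine and at 9.37, 9.90 and 10.48 after saline (0.47, SE 0.105, adjusted p = 0.0426 by limma). A second probe of Ddc gave 0.35. Prodh, the first enzyme of proline breakdown, rose by 0.30 (SE 0.054, adjusted p = 0.00714), and Gpt2, the mitochondrial alanine aminotransferase, by 0.32 (SE 0.0621, adjusted p = 0.015 by limma), each in 12 of 12 pairs. The groupings by role in this and the surrounding paragraphs were made after the values were seen and were not tested.

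Tppp3, a member of the tubulin polymerization-promoting family, stood at 10.28, 10.98 and 11.45 on morphine-injected arrays and at 9.89, 10.44 and 10.70 on saline-injected arrays. Fam20a, the partner of a kinase of the secretory pathway, stood at 9.98, 10.37 and 10.75 after morphine and at 9.52, 9.88 and 10.26 after saline. In both genes the median after morphine was above every saline-injected array, and all 12 pairs were higher. The differences were 0.54 for Tppp3 (SE 0.0916, adjusted p = 0.00452) and 0.52 for Fam20a (SE 0.0822, adjusted p = 0.00244 by limma). Rhpn2 rose by 0.46 (SE 0.0945, adjusted p = 0.023) in 12 of 12 pairs. Crx, a homeobox factor of photoreceptors, stood at 6.70, 7.22 and 8.36 after morphine and at 6.31, 6.90 and 7.34 after saline, around the filter level, with a difference of 0.48 (SE 0.0974, adjusted p = 0.0195 by limma).

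The remaining 19 rises and 8 falls of the set were smaller, and they are listed to account for all 51 genes, most of them outside the rule for named genes. Cdc37l1, related to an Hsp90 co-chaperone, rose by 0.38 (SE 0.0612, adjusted p = 0.003 by limma). Castor1, the arginine sensor of the mTORC1 pathway, rose by 0.41 in 12 of 12 pairs, and Lrrc8a, a subunit of the volume-regulated anion channel, by 0.40 in 12 of 12 pairs. Wipf3, a regulator of actin assembly, rose by 0.40 and Hapln2, a hyaluronan link protein at nodes of Ranvier, by 0.33. Hapln2 was the single gene of 31 tested extracellular matrix genes that passed, where 0.691% of all genes passed. Farp2, Tns3, Smox, Cyp2d22, Pld1, Endod1, Slc25a33, Zcchc24, Arhgef3, Wbp1l and Dph2 rose by 0.24 (Dph2) to 0.37 (Farp2). Litaf, Aif1l, Lypd6, Tmem51, Micall1 and Cilk1 fell, by 0.39 for Litaf and Aif1l and by 0.23 for Cilk1, the smallest change of the set.

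Second probes bore on 21 of the 51 genes, through 34 further probes above the filter. Of these probes 31 had the sign of the main probe, and 15 of the 31 had an unadjusted p under 0.05. For Nostrin a second probe gave 0.52 and for Plekhf1 0.59. For Mcam, 2 further probes gave -0.48 and -0.35. For Fgfr2, 2 further probes gave -0.40 and -0.15, of which the first had an unadjusted p under 0.05. With the mean of its probes Fgfr2 was not called. The 3 probes of opposite sign, 2 of Tns3 and 1 of Zcchc24, had differences of -0.03, -0.07 and -0.15, none with an unadjusted p under 0.05.

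**Figure D3:**
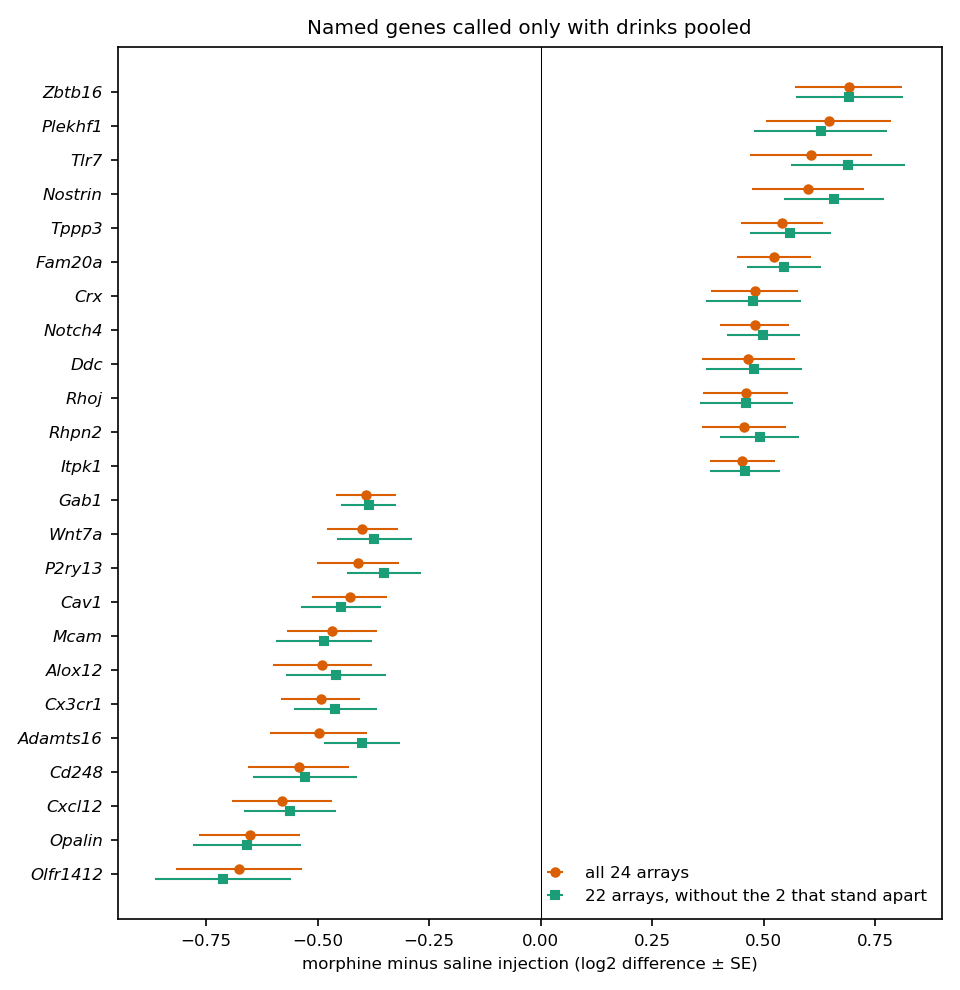
Log2 difference, morphine minus saline injection, of the named genes called only with drinks pooled, with bars of 1 SE, from all 24 arrays (circles) and from the 22 arrays left without the 2 that stood apart (squares). The rises run to 0.69 for Zbtb16 and the falls to -0.68 for Olfr1412, and every gene kept its sign. Adamts16 stood at -0.50 on all arrays and at -0.40 without the 2, among the larger shifts shown.

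The next comparison asked whether the 2 kinds of drinkers differed in the response that the pooled fit averages. No interaction of drink and injection passed among 13742 genes by limma, and 728 genes, 5.3% of all, had an unadjusted p under 0.05. None of the 51 genes was among the 728, whereas 8 of the 44 genes also called in a kind of drinker were. All 51 genes had the same sign and an unadjusted p under 0.05 in both kinds of drinker, which 6.34% of all genes had in morphine drinkers and 7.7% in saccharin drinkers. The way they were chosen largely fixes these counts, since a gene can pass with drinks pooled while missing both thresholds mainly where the responses are alike. The lowest adjusted p among the 51 genes was 0.102 in morphine drinkers (Fgfr2) and 0.0519 in saccharin drinkers (Gab1). The change was larger in morphine drinkers for 25 of the 51 genes and larger in saccharin drinkers for 26. Of the rises, 18 of 31 were larger in saccharin drinkers, and of the falls 8 of 20. Among the 44 other called genes, 38 were larger in saccharin drinkers, the drinkers in which most of them had been called.

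**Figure D4:**
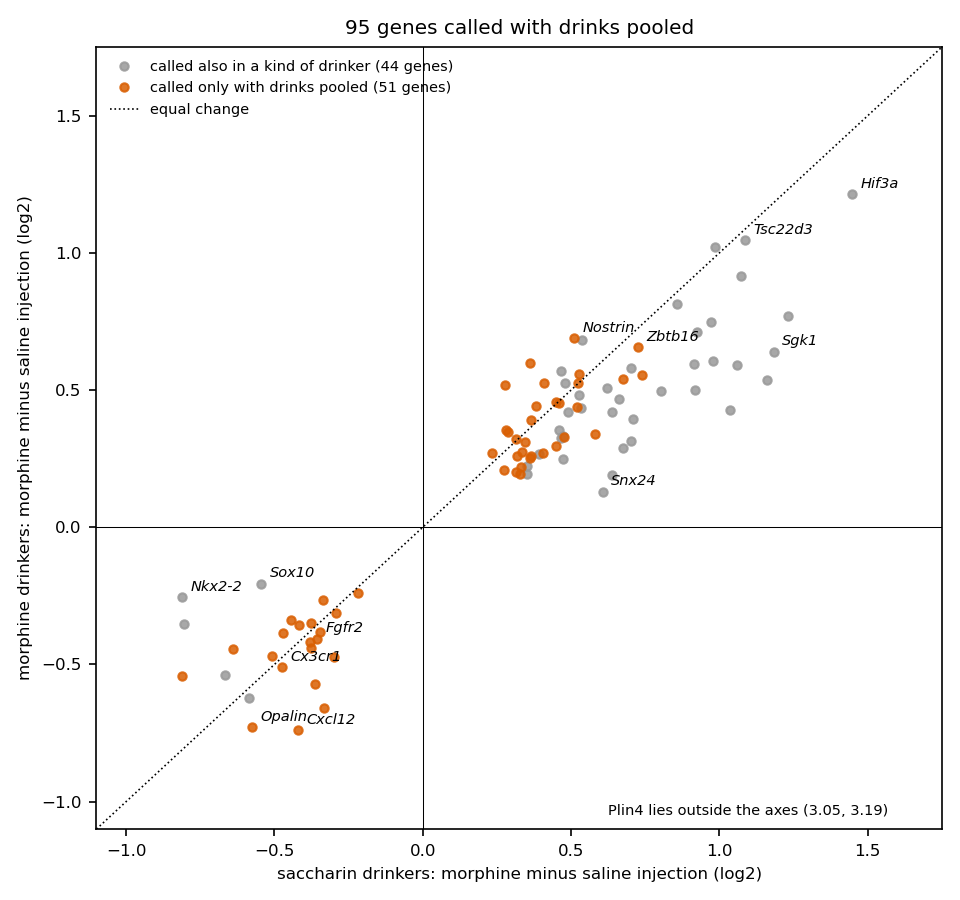
Log2 difference, morphine minus saline injection, in morphine drinkers (vertical axis) against saccharin drinkers (horizontal axis) for the 95 genes called with drinks pooled. Orange points are the 51 genes called only with drinks pooled and grey points the 44 also called in a kind of drinker. The dotted line marks equal change. The orange points lie on both sides of it, 25 larger in morphine drinkers and 26 in saccharin drinkers, and Plin4 lies outside the axes, at 3.19 in morphine drinkers and 3.05 in saccharin drinkers.

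The genes called also in a kind of drinker set the scale of the response. Plin4, a lipid droplet coat protein, stood at 10.86, 11.39 and 11.84 on morphine-injected arrays and at 7.12, 8.43 and 8.87 on saline-injected arrays, a difference of 3.12 (SE 0.159, adjusted p = 8.32e-10 by limma). Hif3a, an inhibitory member of the hypoxia-inducible factor family, rose by 1.33, Tsc22d3, the glucocorticoid-induced leucine zipper, by 1.07, and Mfsd2a, the lipid transporter of the blood-brain barrier, had a median of 11.86 after morphine and 10.89 after saline. None of these 4 genes had overlapping ranges. Further, dimmer probes of Hif3a gave 0.43 and 0.0053, and with the mean of its probes the rise was 0.59. The falls of largest size in this class were Gkn3, a gastrokine of arterial endothelium, at -0.60, Plekho2 at -0.60, the neural transcription factor Sox21 at -0.58 and Nkx2-2 at -0.53.

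Of 55 tested genes known to be induced by glucocorticoids, 23 rose and 2 fell, against 0.509% and 0.182% of all genes. The median of the list was 0.40, and its mean on 1 array was 10.47 to 11.01 after morphine and 10.13 to 10.36 after saline, without overlap. Among the 51 genes called only with drinks pooled, 3 rises (Zbtb16, Wipf3 and Nostrin) and both falls of the list (Litaf and Gab1) belonged to it, so 20 of its 23 rises had been called in a kind of drinker. The lists were assembled with earlier results of these data known, and their counts are descriptions. Pdk4, a kinase that restrains pyruvate oxidation and a landmark of the same response, had a difference of 0.54 with an adjusted p of 0.0822, and 0.53 with an adjusted p of 0.0293 by limma without the 2 arrays.

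The 250 bases before the start of 81 of the 95 called genes were available from RefSeq (GRCm38.p6) and were searched on both strands for the palindromic glucocorticoid response element GNACANNNTGTNC. Where a gene had several listed starts, any of them counted. The element was found in 0.39% of 11014 tested genes with a promoter and in 3 of 34 rises also called in a kind of drinker, Sgk1, Map3k6 and Txnip. It was found in 0 of 25 rises and 0 of 18 falls called only with drinks pooled. At a share of 0.39%, sets of this size would mostly hold none, so these counts do not set the classes apart. The element is in capitals in the stretches below, each printed 5′ to 3′ on the strand of its gene and ending at the base before the start, because they show how the match sits in the promoters of the genes that held it. Sgk1 encodes a kinase induced by serum and glucocorticoids, Map3k6 a kinase of the MAP kinase cascade and Txnip a thioredoxin-binding protein, and they rose by 0.91, 0.73 and 0.55. The stretches are chr10:21993640-21993889, chr4:133240568-133240817 and chr3:96557707-96557956 on the plus strand, and the element begins 188, 181 and 172 bases before the start.
Sgk1: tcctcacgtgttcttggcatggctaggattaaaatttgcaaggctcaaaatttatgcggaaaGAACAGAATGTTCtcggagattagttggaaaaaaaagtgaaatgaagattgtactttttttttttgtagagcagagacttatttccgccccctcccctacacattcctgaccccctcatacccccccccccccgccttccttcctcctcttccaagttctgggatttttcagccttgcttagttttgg
Map3k6: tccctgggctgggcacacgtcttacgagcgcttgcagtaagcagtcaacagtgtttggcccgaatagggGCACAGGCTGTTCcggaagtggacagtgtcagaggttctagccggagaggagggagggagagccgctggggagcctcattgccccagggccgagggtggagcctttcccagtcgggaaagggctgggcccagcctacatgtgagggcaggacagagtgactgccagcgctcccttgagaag
Txnip: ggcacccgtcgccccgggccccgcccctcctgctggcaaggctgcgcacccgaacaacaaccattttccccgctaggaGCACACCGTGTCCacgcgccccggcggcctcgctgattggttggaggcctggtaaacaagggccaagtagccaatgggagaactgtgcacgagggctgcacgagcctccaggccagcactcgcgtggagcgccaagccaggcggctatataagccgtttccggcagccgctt

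The shorter element AGAACA, which can overlap an end of the palindrome on either strand, was present in 13.7% of the tested genes' promoters, in 4 of 25 rises and in 3 of 18 falls called only with drinks pooled, and in 4 of 34 rises also called in a kind of drinker. The forkhead site TGTTTAC was present in 2.77% of the tested genes' promoters, in none of the 25 rises and 18 falls, and in 4 of the 34 rises. With so few promoters in each class, these counts were not tested and do not set the classes apart. A match is a run of letters in this window and was not tested as a binding site.

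The remaining lists held no more than 4 called genes each. Of 24 tested astrocyte markers, Gjb6, a gap junction protein, Mertk and Htra1, a secreted protease, rose, against 0.509% of all genes, and all 3 had also been called in a kind of drinker. Without the 2 arrays that stood apart, Gjb6 was called with drinks pooled (0.61, adjusted p = 0.00159 by limma) but in neither kind of drinker. The other lists with over 2 rises, beside the glucocorticoid-induced genes, were insulin and FOXO signalling, with 4 rises of 27, Krueppel-like factors and growth arrest genes, with 3 of 26, and lipid droplet and fatty acid use, with 3 of 27, none of them among the 51 genes. None of 27 medium spiny neuron genes passed, with 21 positive differences and a median of 0.04. None of 26 immediate-early genes passed, and their median was -0.11. None of 26 opioid peptide, receptor and signalling genes passed, while Oprm1, the mu opioid receptor gene, was not tested because the mean of its single probe, 6.42, lay under the filter. Of 24 dopamine and cAMP signalling genes Ddc alone rose, of 28 BMP, Notch and Wnt signalling genes Notch4 alone rose, and of 28 MAP kinase signalling genes Map3k6 and Errfi1 rose and Fgfr2 fell. The median of 24 interferon response genes was -0.13 on all arrays and 0.03 without the 2 arrays that stood apart, with no gene called.

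**Figure D5:**
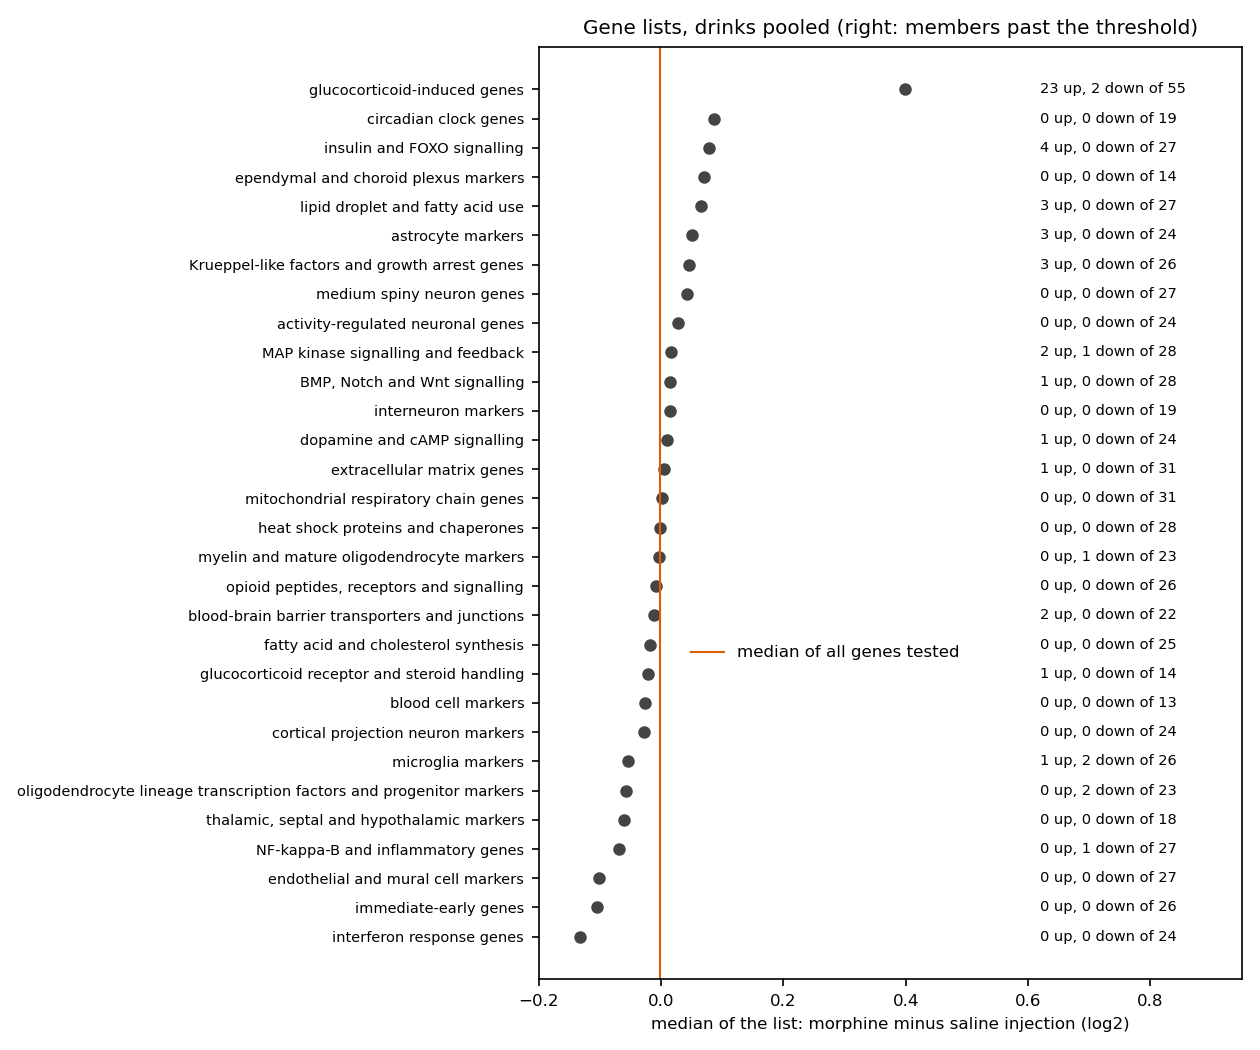
Median log2 difference, morphine minus saline injection, of the tested members of 30 gene lists (points), with the number of members that rose and fell past the threshold of 0.05 at the right. The line marks the median of all genes tested, 0.00. The glucocorticoid-induced genes stand at 0.40 and the other lists between -0.13 and 0.09.

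Without the 2 arrays that stood apart, 107 genes were called, 0.779% of those tested, with 83 rises and 24 falls. They included 85 of the 95, and 59 were called in neither kind of drinker. Of the 51 genes, 42 were called again. Gab1 and Pld1 were then also called in a kind of drinker, while Gkn3, Gjb6 and Cpm, called in a kind of drinker on all arrays, were then called with drinks pooled only. B3galt5 was then not called (adjusted p = 0.051 by limma). The 9 that were not called were the rises Dph2, Smox, Plekhf1 and Cyp2d22 and the falls Aif1l, Micall1, Cilk1, P2ry13 and Alox12, whose adjusted p lay between 0.0503 (Micall1) and 0.0828 (Alox12) by limma. The 22 genes called without the 2 arrays alone included 18 rises and 4 falls. The largest was that of Spink8, a serine protease inhibitor gene, at 1.07 (SE 0.156, adjusted p = 0.00187 by limma), against 1.04 with an adjusted p of 0.0941 on all arrays. Nt5e, the surface enzyme that makes adenosine, was at 0.75 (adjusted p = 0.0152) without the 2 arrays and at 0.57 (adjusted p = 0.591 by limma) with them. Ramp2, a partner of the adrenomedullin receptor, was at 0.36 and 0.34 in that order, and Tgm2, tissue transglutaminase, at 0.41 and 0.30. These 4 genes were chosen after their values were seen.

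The threshold divided genes of like values. Just inside it were Tlr7, Ddc and Alox12, with adjusted p of 0.0422, 0.0426 and 0.0458, and just outside were Mxd4 (0.34, adjusted p = 0.0512), Sox12 (-0.26, adjusted p = 0.0583) and Arrdc2 (0.66, adjusted p = 0.0586 by limma). Without the 2 arrays that stood apart Sox12, a SoxC transcription factor, was a called fall, at -0.28 (adjusted p = 0.0336 by limma), and was called in neither kind of drinker. Scaling the arrays to a common median in place of quantile normalization left 25 genes called, 21 rises and 4 falls, which makes 84% rises against 73.7%, and 3 of the 51 passed there, Olfr1412, Opalin and Zbtb16. When each array was left out in turn, 29 of the 51 genes were called every time. Cd248 was not called without morphine drinkers' saline-injected replicate 30, nor Rhoj without saccharin drinkers' saline-injected replicate 8, and Rhpn2 was not called on leaving out any of 3 single arrays. Among the other genes of largest size, Olfr1412 was lost on leaving out any of 8 single arrays, Nostrin of 10, Adamts16 of 11, Plekhf1 of 14, Mcam of 15, Ddc of 16, and Tlr7, P2ry13 and Alox12 of 18 each. When each chip was left out in turn, 8 of the 51 genes were called every time, namely Cdc37l1, Fam20a, Fgfr2, Itpk1, Notch4, Prodh, Tppp3 and Zbtb16. Among these, Cdc37l1, Fam20a, Fgfr2, Notch4 and Prodh were not called with the mean of their probes, and Zbtb16 was not called with no chip term.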

How the data were processed

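Per the labels' protocols, RNA was extracted with Trizol, cleaned up with DNase I treatment and made into biotinylated cRNA. The authors deposited linear probe intensity values, not normalised between arrays, and a log2 table. That table ranked each array's probes as the intensities did and lay within 0.110 of quantile-normalised log2 intensity. Which tool made it is not given in the sources. It served as an alternative. Intensities were corrected with normexp (offset 50), quantile-normalised and put on the log2 scale (limma 3.58.1, R 4.3.3). Of 45281 probes, 34885 had 1 gene symbol, 18 several and 10378 none. Probes with 1 symbol whose mean over all arrays exceeded the 40th percentile of such means (log2 7.09) were kept, the brightest for each gene. Each of 13742 genes was fitted by lmFit and eBayes on 24 arrays with injection, drink and chip, and for each kind of drinker and the interaction with 4 groups and chip. P-values are two-sided, adjusted by Benjamini-Hochberg. The number of arrays limits the precision, and the labels say no more of the animals than a number for each array, so p-values measure the spread between these arrays.

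The comparison, the members and the 30 gene lists were chosen with earlier results of these data known. Genes were named by a rule: the 12 largest rises and the 12 largest falls called only with drinks pooled and of the same direction in at least 10 of 12 pairs, 4 of each also called in a kind of drinker, up to 3 called members of a list, the 3 genes on each side of the threshold, and 16 landmarks. Of these landmarks Fos, Per1, Pdyn, Arc, Penk, Gfap, Drd1, Drd2 and Nr3c1 did not pass. The fit was also run on simulated data with independent noise and no arrays set apart. That run does not bear on how the calls depend on the settings. Figures were drawn with matplotlib 3.10.9.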

Additional observations from a re-analysis of the deposited data

Results flagged for a closer look

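Over 104 groups of 6 arrays of 26 genes called only with drinks pooled, 9 arrays stood far from the rest of their group by Dixon's test, of which chance gives about 1 in 20 groups. Among falls, Fgfr2 was at 12.12 on saccharin drinkers' morphine-injected replicate 12, below the next array at 12.36. Gab1 was at 11.97 on saccharin drinkers' morphine-injected replicate 9 (next 11.54) and at 12.28 on saccharin drinkers' saline-injected replicate 8 (next 11.94), both on chip 6. Cx3cr1 was at 11.15 on morphine drinkers' morphine-injected replicate 34 (next 10.61), and P2ry13 at 10.69 on saccharin drinkers' morphine-injected replicate 9 (next 9.69). Mcam was at 9.11 on morphine drinkers' saline-injected replicate 32 (next 9.68) and Alox12 at 6.50 on morphine drinkers' morphine-injected replicate 31 (next 7.13), the 2 arrays with low medium spiny neuron genes. Among rises, Tlr7 was at 9.83 on saccharin drinkers' morphine-injected replicate 11 (next 9.08) and Rhpn2 at 7.94 on saccharin drinkers' saline-injected replicate 10 (next 8.55).

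Probes without a listed gene symbol, which no comparison above used, also held differences between morphine-injected and saline-injected arrays. Of 4660 such probes above the filter, 3 passed by limma, 0.0644%, and all 3 rose, ILMN_1246770 by 0.66, ILMN_1234929 by 0.50 and ILMN_2978838 by 0.30.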

How the results depend on the processing

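With 45 alternative settings, 30 of which left out 1 array or chip, the pooled count of 95 genes became 25 after scaling to a common median (21 rises, 4 falls), 61 with no chip term and 185 with array weights (122 rises, 63 falls). It was 45 to 106 when any array or chip was dropped, of which leaving out chip 1 (45), chip 5 (47) and chip 6 (54) moved it by over 1.5 times. The 51 genes called only with drinks pooled became 16 after scaling to a common median, 116 with array weights, 34 to 74 when any array or chip was dropped, and 87 when each kind of drinker was fitted on its own arrays, an alternative chosen after seeing the data in which 2 genes passed in morphine drinkers and 10 in saccharin drinkers. With array weights 60 genes passed in morphine drinkers and 40 in saccharin drinkers, the only setting with more calls in morphine drinkers. Of the 51 genes themselves, 18 were called in a kind of drinker with array weights. Another 2 settings, a trended and robust limma prior and a filter at the 60th percentile, gave 12 and 11 such genes. The rest of the 45 settings gave 0 to 3. The interaction gave 0 calls in all 45, with 452 to 969 genes at an unadjusted p under 0.05. With chip position as a further term, 67 genes were called with drinks pooled. There 22 of the 51 genes stayed called, against 24 with no chip term and 35 with the mean of each gene's probes. Of the 44 others, 38, 35 and 39 stayed called, in that order. None of the 51 genes passed in all 45 settings, against 18 of the 44 others. The 11 that missed in at least 23 were Smox, Mcam, Aif1l, Micall1, Ddc, Tlr7, Hapln2, Cyp2d22, P2ry13, Cilk1 and Alox12. Alox12 turned sign with a common median (0.0266) and with cyclic loess (0.0213). The brightest probe of each gene was picked anew under each normalization, so these values may not be of the same Alox12 probe. The cause was not tested. The numbers in the labels differ between groups, so none pairs animals, and chip was the block. Levels near the filter limit what the arrays can show for 3 of the 51 genes whose mean lay within 0.5 of it.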
